A study of Rattus norvegicus with 9 samples.

Results

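Motile cilia genes were measured in rat hypothalamus by 58 probe sets of 49 genes, out of 31042 probe sets that cover 14217 named genes. Members were taken by a rule on gene symbols that uses no measured value, though the rule was set with earlier results of these data known. They carry a family name of axonemal proteins (Cfap, Dnah, Dnai, Tekt, Spag, Rsph, Drc or Odad) followed by a number, or are Foxj1, Dynlrb2, Ccdc153 or Tmem212. Ccdc153 is annotated under its current symbol, Drc12. The tissue came from 9 male rats (Rattus norvegicus, strain not given in the sources used here) aged 13 weeks, with 1 array per rat. The groups were 4 rats on the labelled Noodle diet and 5 on the labelled control diet. Both diets held 30% instant noodle by weight, with 26% of energy as fat, and the control diet lacked the seasonings. Feeding was matched at about 60 g of diet per kg of body weight per day. The labels disagree on how long it lasted, giving 30 days for the treatment and 4 weeks for the housing. The comparison asks whether seasonings alter hypothalamic transcripts. Rats are named below by diet and by the number in their label.

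Motile cilia beat on the ependymal cells that line the brain ventricles, including the third ventricle beside the hypothalamus, and move cerebrospinal fluid along the wall. Their core, the axoneme, is a ring of doublet microtubules around a central pair. Outer and inner dynein arms slide the doublets past each other, nexin-dynein regulatory complexes link them, radial spokes join them to the central apparatus, and tektins and further proteins line the inside of the tubules. Foxj1 and the RFX factors switch these genes on together. In bulk tissue, fewer ciliated cells and less RNA per ciliated cell cannot be told apart, and tanycytes, choroid plexus and primary cilia of neurons share some of the genes. The symbol rule also takes in genes with other known roles, among them Spag5 (astrin, a mitotic spindle protein), Spag9 (a scaffold of kinase signalling) and Spag11a (a defensin-like protein of the epididymis).

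Only 8 of the 58 probe sets, of 6 genes, carried differences between rats that can be read in log2 units. Their deposited log2 values ranged over 0.169 to 0.963 across the 9 rats, above the limit of 0.05 that defines a variable probe set here. The other 50, of 43 genes, were compressed: they ranged over 0.000142 to 0.00132 log2 units, under the limit of 0.01. None lay between, where 0.193% of all probe sets did. Variable probe sets were 13.8% of the members and 3.94% of all probe sets, compressed ones 86.2% and 95.9%, and the median probe set of the array ranged over 0.000518. The sources used here do not say why the deposited values are compressed. A difference in a compressed probe set is not a fold change of the transcript, so its direction and its order across rats are given without any size. The 6 genes with variable probe sets were Dynlrb2, Tmem212, Cfap144, Cfap161, Cfap20dc and Spag5. Foxj1, the transcription factor of the programme, was compressed.

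The sequence upstream of these 6 genes is shown because Dynlrb2, Tmem212, Cfap144 and Cfap161 moved together across rats while Cfap20dc and Spag5 did not follow them. The sequences are from RefSeq (build GRCr8), 5′ to 3′ on the strand of the gene, with positions counted back from -1 at the base before the start used in that table. Capitals mark the letters GTTNCC on either strand, a half-site of the RFX factors, and in Cfap20dc also the bases between the half-sites of a longer RFX palindrome. Whole windows of 250 bases are given for Cfap144, Cfap161 and Cfap20dc and the first 194 bases for Tmem212, up to the edge of the annotated gene. The windows of Dynlrb2 and Spag5 lie inside the annotated gene, so 30 bases around the half-site nearest to the start are given for those.
Dynlrb2, chr19:61429038-61429067 (+ strand): acttcctgcctgGTTTCCtagcaacaggga
Tmem212, chr2:112741925-112742118 (- strand): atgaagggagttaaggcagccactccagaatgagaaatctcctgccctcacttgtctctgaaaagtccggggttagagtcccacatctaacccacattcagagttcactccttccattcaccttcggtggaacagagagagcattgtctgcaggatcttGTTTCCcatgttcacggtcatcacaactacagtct
Cfap144, chr10:44019282-44019531 (- strand): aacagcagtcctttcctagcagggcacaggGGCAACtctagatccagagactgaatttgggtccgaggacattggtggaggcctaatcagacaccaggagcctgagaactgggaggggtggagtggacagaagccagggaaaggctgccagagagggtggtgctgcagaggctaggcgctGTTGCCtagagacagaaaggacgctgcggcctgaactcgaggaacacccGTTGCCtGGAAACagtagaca
Cfap161, chr1:147177822-147178071 (- strand): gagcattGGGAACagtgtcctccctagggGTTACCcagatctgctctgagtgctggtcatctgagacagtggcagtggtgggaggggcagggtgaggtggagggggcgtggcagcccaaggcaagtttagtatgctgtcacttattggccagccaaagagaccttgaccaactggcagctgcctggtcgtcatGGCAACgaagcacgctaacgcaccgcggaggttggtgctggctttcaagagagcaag
Cfap20dc, chr15:18661312-18661561 (+ strand): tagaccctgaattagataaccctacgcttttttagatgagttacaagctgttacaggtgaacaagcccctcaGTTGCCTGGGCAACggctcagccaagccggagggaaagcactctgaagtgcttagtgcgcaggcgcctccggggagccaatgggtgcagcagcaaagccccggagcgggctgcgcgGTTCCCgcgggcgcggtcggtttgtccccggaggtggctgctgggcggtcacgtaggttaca
Spag5, chr10:63696801-63696830 (+ strand): cgcagccaatccGGAAACgcgtattgggtt
All 6 windows held the half-site: 4 times in Cfap144, 3 times in Cfap161, Cfap20dc and Spag5, 2 times in Tmem212 and 1 time in Dynlrb2. The letters were found in 39.9% of the 33469 windows of this length in the table and in 28 of 51 member windows (54.9%), which belong to 40 member genes. A longer RFX palindrome that contains the half-site (GTTNCC, any 3 bases, then GNAAC) was found in 0.595% of all windows and in 3 member genes, Cfap20dc, Cfap298 and Odad3. In Cfap20dc it starts at position -178. Only this spacing of the palindrome was searched. At a closer spacing, which the pattern does not count, Cfap144 holds GTTGCCtGGAAAC and Dynlrb2 holds GTTTCCtagcaac. The forkhead letters TGTTTGT (5.64% of all windows) and TGTTTAC (3.21%) were in none of these 6 windows. Over all members TGTTTGT was found for Cfap69, Cfap90 and Tekt2 and TGTTTAC for Cfap20 and Tekt3. These are matches of letters only.

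Dynlrb2 encodes a roadblock-type light chain of dynein. It measured 8.61, 8.30, 8.68 and 8.27 log2 units in noodle-diet rats 1, 4, 7 and 13. In control rats 2, 5, 8, 11 and 14 it measured 8.60, 8.45, 8.35, 8.68 and 8.61. Noodle-diet rats 13 and 4 and control rat 8 were lowest, control rat 5 was intermediate, and the other 5 rats lay at 8.60 to 8.68, so both diets held low and high rats.

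Tmem212, which encodes a membrane protein made in ciliated ependymal cells, has 2 variable probe sets. The probe set 1381901_at measured 7.76, 7.63, 7.77 and 7.66 in noodle-diet rats 1, 4, 7 and 13. It measured 7.78, 7.70, 7.70, 7.80 and 7.78 in control rats 2, 5, 8, 11 and 14. Noodle-diet rats 4 and 13 were again lowest, and the groups overlapped. The probe set 1378042_at ranged more widely, with 6.42, 6.64, 7.14 and 6.19 in the noodle-diet rats in the same order. Its values in the control rats were 7.16, 6.44, 6.42, 6.88 and 6.51. Here control rat 2 and noodle-diet rat 7 were highest and noodle-diet rat 13 lowest. The correlation between the probe sets of this gene did not pass, with r = 0.58 (exact permutation p = 0.103) and Spearman rho = 0.58 (exact permutation p = 0.108).

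Cfap144, a protein of the inside of doublet microtubules, also has 2 variable probe sets. The probe set 1381955_at measured 7.72, 7.53, 7.70 and 7.497 in the noodle-diet rats. It measured 7.99, 7.71, 7.54, 7.71 and 7.85 in the control rats. The probe set 1393386_at measured 7.67, 7.52, 7.67 and 7.45 in the noodle-diet rats and 7.82, 7.65, 7.58, 7.76 and 7.78 in the control rats. In both, control rat 2 was highest and noodle-diet rats 4 and 13 were lowest, and the diets overlapped. These probe sets ranked the rats nearly alike, with r = 0.93 (exact permutation p = 0.000482) and rho = 0.92 (exact permutation p = 0.00131).

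Cfap161, another protein of the inside of the tubule wall, measured 6.64, 6.57, 6.67 and 6.45 in noodle-diet rats 1, 4, 7 and 13. It measured 6.68, 6.57, 6.58, 6.73 and 6.63 in control rats 2, 5, 8, 11 and 14. Noodle-diet rat 13 was lowest and control rat 11 highest.

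Cfap20dc, named for a domain it shares with Cfap20, followed another order. It measured 9.44, 9.24, 9.23 and 9.23 in noodle-diet rats 1, 4, 7 and 13. The control rats 2, 5, 8, 11 and 14 measured 9.12, 9.49, 9.69, 9.22 and 9.10. Control rats 8 and 5 and noodle-diet rat 1 were highest, and control rats 14 and 2 lowest. Spag5 measured 6.58, 6.41, 6.41 and 6.52 in the noodle-diet rats and 6.46, 6.55, 6.69, 6.36 and 6.32 in the control rats. Control rat 8 was highest and control rat 14 lowest, as for Cfap20dc.

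**Figure D1:**
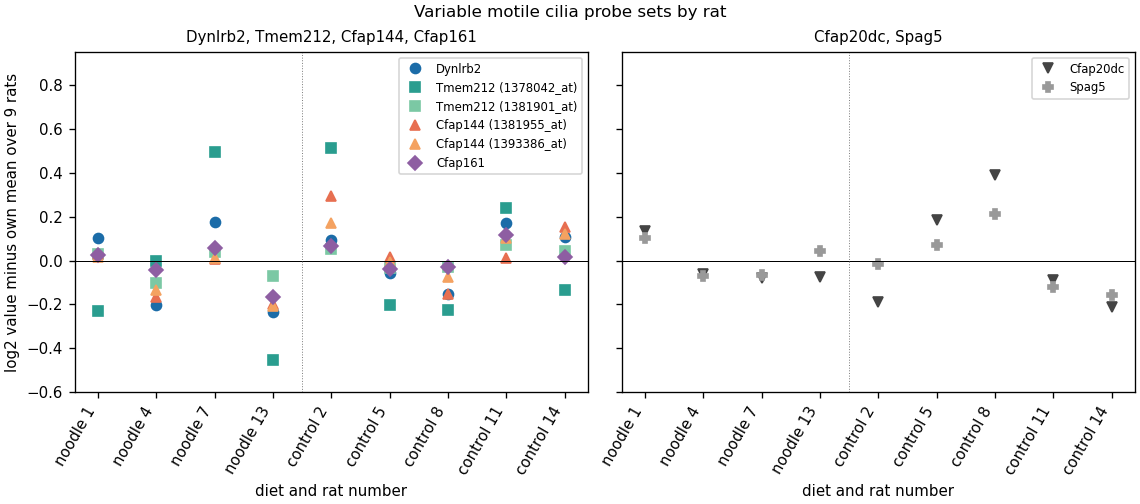
Log2 value of each variable probe set minus its own mean over the 9 rats, by diet and rat number; each point is 1 rat, and the dotted line separates the diets. Noodle-diet rat 13 lies below 0 for all 6 probe sets on the left, while control rat 8 is the highest rat for both Cfap20dc and Spag5 on the right.

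The 8 variable probe sets fell into 2 patterns across rats. The split was read from these same correlations, so the signs of r within and between the patterns are no separate support for it. All 15 pairs among the 6 probe sets of Dynlrb2, Tmem212, Cfap144 and Cfap161 correlated above 0, with r from 0.58 to 0.95 and a median of 0.77. By exact permutation over the 362880 pairings, with Benjamini-Hochberg adjustment over all 28 pairs, 9 of these 15 passed 0.05 by Pearson's r and 5 by Spearman's rho. The 15 include the pair of Cfap144 probe sets (r = 0.93), which passed by both, and the pair of Tmem212 probe sets (r = 0.58), which did not. Tmem212 (1378042_at) passed by r only with Cfap161 (r = 0.76, exact permutation p = 0.0133, adjusted p = 0.0414). With Dynlrb2 it gave r = 0.65 (exact permutation p = 0.0640, adjusted p = 0.138). The passing pairs of this gene thus rested mainly on 1381901_at. The closest pair was Dynlrb2 and Tmem212 (1381901_at), with r = 0.95 (exact permutation p = 0.000774, adjusted p = 0.00723) and rho = 0.80 (exact p = 0.0138, adjusted p = 0.0553). Without noodle-diet rats 4 and 13, the rats farthest from the median of either, r was 0.91. Dynlrb2 and Cfap161 gave r = 0.88 (exact p = 0.000355, adjusted p = 0.00675) and rho = 0.83 (exact p = 0.00827, adjusted p = 0.0463), and r = 0.84 without those rats. Over the 15 pairs, leaving out the 2 rats farthest from the median of the first member gave r from 0.32 to 0.92.

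Cfap20dc and Spag5 followed each other, with r = 0.88 (exact permutation p = 0.00161, adjusted p = 0.00903) and rho = 0.82 (exact p = 0.0108, adjusted p = 0.0503). Without control rats 8 and 14 r was 0.69. All 12 pairs of either with a probe set of the other 4 genes had r below 0, from -0.48 to -0.24, and 0 of the 12 passed. At an unadjusted exact permutation p under 0.05, 0 of the 12 passed as well. Over all 28 pairs the median r was 0.60. With 1 probe set per gene, that of highest mean, the median turned to -0.24, because Cfap20dc and Spag5 then enter 9 of the 15 pairs. Over all pairs of the 1223 variable probe sets of the array the median r was 0.072.

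**Figure D2:**
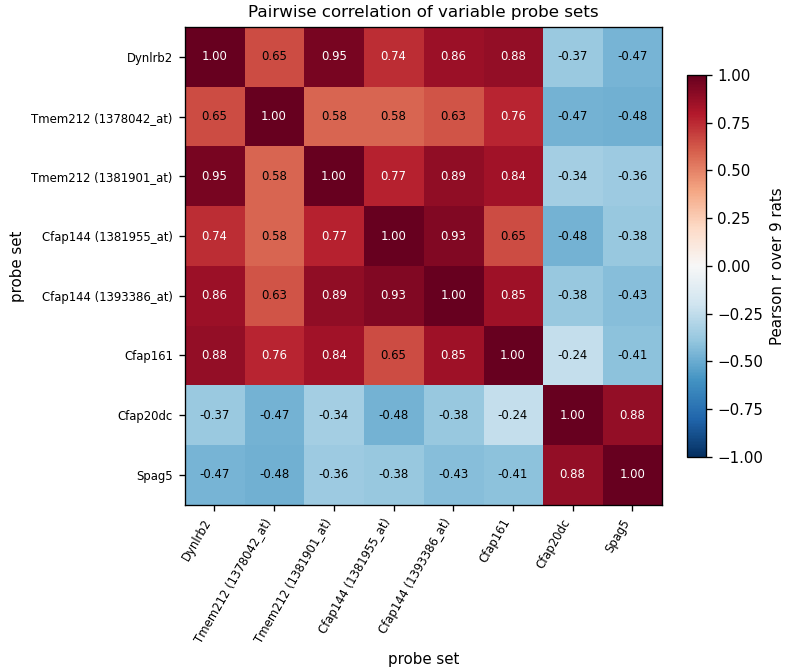
Pearson correlation over the 9 rats between each pair of the 8 variable probe sets, from -1 (blue) to 1 (red), with r printed in each cell. The block of Dynlrb2, Tmem212, Cfap144 and Cfap161 holds values from 0.58 to 0.95, and Cfap20dc with Spag5 gives 0.88.

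Cfap20dc ranked the rats as myelin genes did. Mag (myelin-associated glycoprotein) measured 9.35, 9.24, 9.19 and 9.19 in noodle-diet rats 1, 4, 7 and 13 and 9.07, 9.45, 9.72, 9.12 and 9.06 in control rats 2, 5, 8, 11 and 14. Its r with Cfap20dc was 0.99 (exact permutation p = 5.51e-06, adjusted p = 0.0499 over all probe sets) and its rho 0.98 (exact p = 4.96e-05). Without control rats 5 and 8 r was 0.96. With a probe set of Cnp, an enzyme of myelin, r was 0.97 (exact permutation p = 2.76e-06, adjusted p = 0.0428). In all, 11 of 31041 probe sets (0.0354%) correlated with Cfap20dc above 0 at an adjusted p under 0.05, and 0 of them were members. Among compressed members, 3 of 50 had r above 0 with Cfap20dc at an unadjusted exact permutation p under 0.05 and 1 had r below 0, against 4.38% and 4.02% of all compressed probe sets. The 11, named after their values were seen, were Mag, Slc44a1, Rhou, Cnp, Sirt2, Trak2, Pkp4, Ttyh2, Gltp, Gng12 and the compressed Ccsap. All 10 probe sets of 5 oligodendrocyte markers were variable, with r from 0.79 to 0.99 with Cfap20dc, of which 2 passed. Their mean level ran from 10.33 to 10.60 over the noodle-diet rats and from 10.20 to 10.82 over the control rats.

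Spag5 correlated with the same markers at r from 0.61 to 0.94, and with the 14 variable probe sets of 9 meningeal markers at r from 0.74 to 0.91. Those meningeal probe sets had r from 0.58 to 0.74 with Cfap20dc. High values were not limited to these lists. The 8 variable probe sets of ependymal markers outside the cilium ran from -0.11 to 0.92 with Spag5 and from -0.18 to 0.77 with Cfap20dc. The mean of the meningeal probe sets ran from 6.75 to 8.01 on the noodle diet and from 6.63 to 7.78 on the control diet. With Spag5, 0 of 31041 probe sets passed at an adjusted p under 0.05 by exact permutation. At an unadjusted exact p under 0.05 and r above 0, 1278 of 29759 compressed probe sets (4.29%) passed, and 1 of the 50 compressed members. With r below 0 the shares were 4.02% of all and 1 of the 50. The part of oligodendrocyte or meningeal content in the values of Cfap20dc and Spag5 was not tested.

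**Figure D3:**
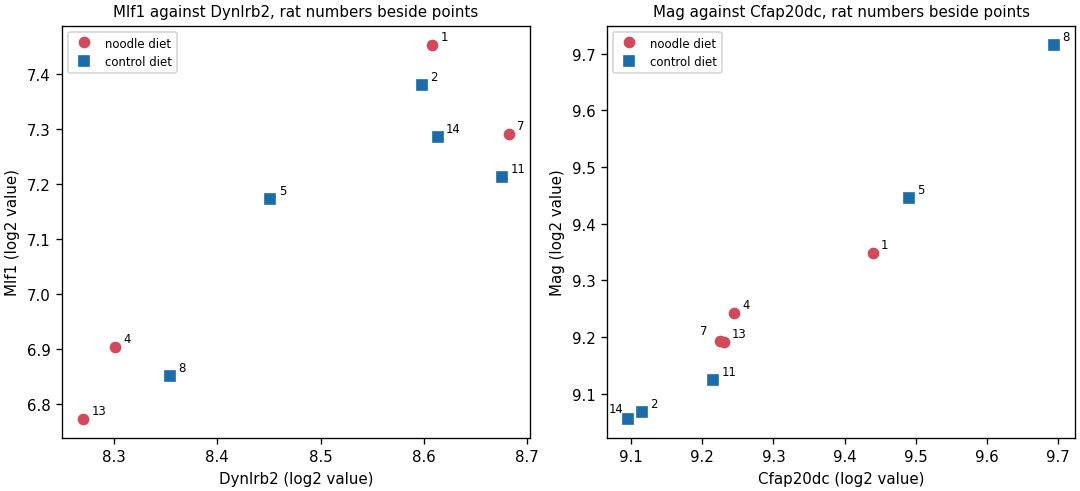
Log2 values of 9 rats, with Mlf1 against Dynlrb2 on the left (r = 0.89) and the myelin gene Mag against Cfap20dc on the right (r = 0.99); circles are noodle-diet and squares control rats, numbered as in the labels. Noodle-diet rats 4 and 13 and control rat 8 lie low on the left, while control rat 8 lies highest on the right.

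As deposited, some compressed members ordered the rats as the variable ones did. No such count remained under either rescaling of the arrays, but those rescalings cannot decide the question. Dynlrb2 was taken as the anchor after the values had been seen, since it is the variable member named by the rule that is measured by 1 probe set. Of the 50 compressed members, 37 correlated with it above 0, and 9 (18%) had r above 0 with an exact permutation p under 0.05. Over all 29759 compressed probe sets these shares were 50.9% and 1.46%. The median r was 0.31 for the members and 0.0082 for all compressed probe sets. None of the 50 had r below 0 at an exact permutation p under 0.05, against 1.38% of all compressed probe sets. After adjustment over all 31041 probe sets 0 passed (0.0%), so no single member is called. With quantile normalization the count was 0 of 50 members against 0.716% of all compressed probe sets, and with a common array median it was 0 against 0.0%. The array medians, between 6.777 and 6.785, differed by more than any compressed member ranged (at most 0.00132). Either rescaling can therefore move compressed values by more than they differed between rats, so its count decides nothing about their order. The share also depended on noodle-diet rat 13: without it 4 of the 50 members and 2.28% of all compressed probe sets remained past the limit. With each diet's mean subtracted, and permutations within diets, it was 5 of 50 against 1.84%.

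The 9 included genes of several parts of the axoneme and a dynein assembly factor. Cfap299 gave r = 0.91 (exact permutation p = 0.000237) and rho = 0.88 (exact p = 0.00308). Drc12, a subunit of the nexin-dynein regulatory complex, gave r = 0.91 (exact permutation p = 0.00117) and rho = 0.72 (exact p = 0.0369). Cfap77, which lies inside the tubule wall, gave r = 0.91 (exact permutation p = 0.000885) and rho = 0.80 (exact p = 0.0138). Leaving out noodle-diet rats 4 and 13 gave r of 0.88, 0.81 and 0.77 for these genes. The others were Cfap45, the inner-arm heavy chain Dnah2, Cfap126, the radial spoke head gene Rsph1, the dynein assembly factor Cfap300 and 1 of 2 probe sets of Rsph10b, with r from 0.70 to 0.84. Without those rats the lowest of the 9 was Rsph10b, at r = 0.22.

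By role, the transcription factor Foxj1 gave r = 0.54 with Dynlrb2 (exact permutation p = 0.125) and rho = 0.13 (exact p = 0.744), and r = -0.39 without noodle-diet rats 4 and 13, so its relation rested on those rats. The 8 genes of dynein arms and their docking were the heavy chains Dnah1, Dnah2, Dnah7 and Dnah17, the chains Dnai1 and Dnai7, and the docking proteins Odad3 and Odad4. Their r ran from -0.30 (Dnah17, known from sperm) to 0.81 (Dnah2), with 6 above 0. The radial spoke genes Rsph1, Rsph3, Rsph6a, Rsph9 and Rsph10b gave 4 of 6 probe sets above 0, from -0.088 to 0.75. The regulatory complex genes Drc1, Drc3 and Drc12 lay at 0.0051, 0.46 and 0.91. The tektins Tekt1 to Tekt5 ran from -0.042 (Tekt5) to 0.57 (Tekt2), and 0 of 5 passed the unadjusted limit.

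Among the 18 compressed probe sets of 16 Cfap genes, 16 had r above 0 and 5 passed that limit. Besides those named, these genes were Cfap20, Cfap36, Cfap69, Cfap90, Cfap97, Cfap100, Cfap107, Cfap276, Cfap298, Cfap410 and Cfap418. Cfap410 was lowest, at -0.56. The Spag genes stood apart in direction, with 3 of 9 compressed probe sets above 0 and a median r of -0.13. These were Spag4, Spag7, Spag9, Spag11a and Spag16, of which only Spag16, a protein of the central apparatus, is a well-known axonemal gene. The difference between roles was not tested.

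**Figure D4:**
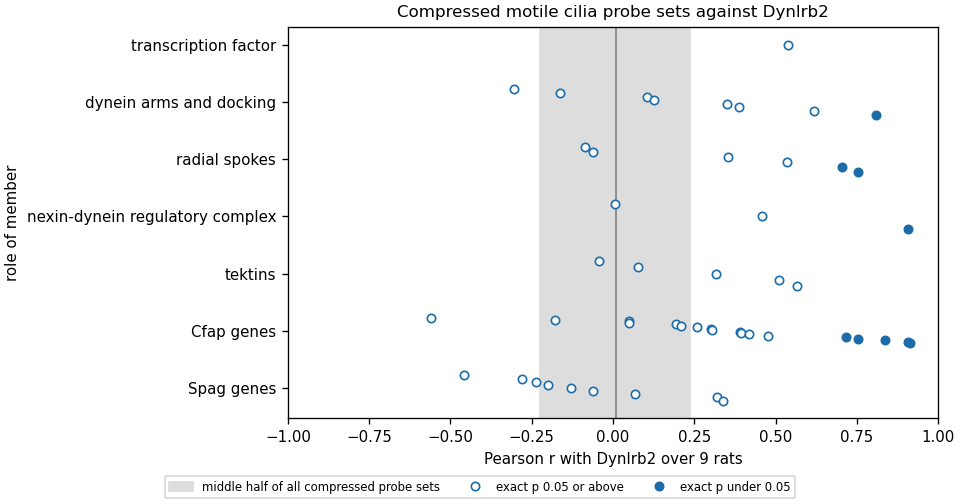
Pearson r over the 9 rats of each compressed member with Dynlrb2, by role; filled points have an exact permutation p under 0.05, the grey band spans the middle quartiles of all 29759 compressed probe sets and the line is their median. Most points lie to the right of the line, and the 9 filled points lie at 0.70 or above.

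Cilia genes outside the symbol rule were read from lists of genes by function. The lists were chosen with earlier results of these data known, and Cdhr4 was among those results, so they are no independent check. The list of motile axoneme and dynein assembly genes held 49 measured genes and 58 probe sets. Of its 55 compressed probe sets 47 had r above 0 with Dynlrb2 and 11 (20%) passed an exact permutation p under 0.05, with a median r of 0.39. Over all 29759 compressed probe sets these shares were 50.9% and 1.46%, with a median r of 0.0082. After adjustment over all 31041 probe sets 0 with r above 0 passed, so no single gene of the list is called. The genes of these 11, named after their values were seen, were Dnal1 and Dnali1 (light chains of the outer and inner dynein arms), Ak7, Iqca1, Ccdc40, Saxo4, Rgs22, Nme7, Mns1 and Pierce1, the last with 2 probe sets. Its variable genes were Mlf1, Cdhr4 and Ccdc96. Mlf1 measured 7.45, 6.90, 7.29 and 6.77 in noodle-diet rats 1, 4, 7 and 13 and 7.38, 7.17, 6.85, 7.21 and 7.29 in control rats 2, 5, 8, 11 and 14. Its r with Dynlrb2 was 0.89 (exact permutation p = 0.00313, rho = 0.72, exact p for rho = 0.0369), and 0.77 without noodle-diet rats 4 and 13. Cdhr4, a cadherin-related gene, gave r = 0.60 (exact permutation p = 0.0911, rho = 0.47, exact p for rho = 0.213), which turned to -0.38 without those rats. Ccdc96 gave r = 0.22 (exact permutation p = 0.633, rho = 0.067, exact p for rho = 0.880).

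Intraflagellar transport, which builds motile and primary cilia alike, gave 28 of 33 compressed probe sets with r above 0 and 1 past the unadjusted limit (Ift57, median r 0.29). Its variable gene Kifap3, a kinesin-associated protein, gave r = 0.38. The BBSome, a cargo adaptor of cilia, gave 15 of 16 above 0 and 1 past it (Bbs2, median r 0.28). The ciliary transcription factors gave 10 of 16 above 0 and 1 past it (Myb, median r 0.11). For all compressed probe sets the shares were 50.9% above 0 and 1.46% above 0 and past the limit.

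Markers of ependymal cells outside the cilium had r below 0 with Dynlrb2 wherever they were variable. Of 9 measured genes, with 14 probe sets, 8 probe sets were variable, with r from -0.31 to -0.028, and 0 of the 6 compressed ones had r above 0 at an unadjusted exact permutation p under 0.05. The genes of this list are also made by astrocytes and other cells. S100b, for example, measured 12.78, 12.54, 12.39 and 12.63 in the noodle-diet rats and 12.21, 12.69, 12.28, 12.14 and 12.59 in the control rats. The 3 variable tanycyte probe sets (Crym, Scn7a and Col25a1) gave r from -0.18 to 0.55. The choroid plexus gene Ttr gave r = -0.58 (exact permutation p = 0.101, rho = -0.67, exact p for rho = 0.0589). The other variable choroid plexus probe set, of the prolactin receptor gene Prlr, gave r = 0.45 (exact permutation p = 0.22, rho = 0.43, exact p for rho = 0.25). In the 6 lists of other cell types 0 probe sets passed at an adjusted p under 0.05 with Dynlrb2 by exact permutation, and 0 of their 44 variable probe sets at an unadjusted p under 0.05. The mean of the 8 ependymal probe sets ran from 9.74 to 10.17 on the noodle diet and from 9.64 to 10.02 on the control diet, and their part in the cilia values was not tested.

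Among genes with a variable probe set, the non-members most like the mean deviation of the 8 variable members over the 9 rats were Cdhr4 (r = 0.83), Aurkb (0.82), Pgm1 (0.82), Bbox1 (0.81), Mlf1 (0.80), Fam216b (0.74), Pxmp4 (0.72), Gabbr1 (0.68), Wipi2 (0.65) and Ctdspl2 (0.63). These values only describe likeness, and compressed probe sets were not ranked. The mean deviation averages both patterns without scaling, so probe sets of wider range weigh more. Control rat 8 stood at -0.0082 in it, though that rat was low for Dynlrb2 and highest for Cfap20dc and Spag5. Cdhr4 had r = 0.60 with Dynlrb2 alone. The mean deviation was lowest in noodle-diet rats 13 (-0.17) and 4 (-0.097) and highest in control rat 2 (0.12). Aurkb encodes a mitotic kinase, Bbox1 the last enzyme of carnitine synthesis and Gabbr1 a subunit of the GABA-B receptor.

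Comparing the diets, no member passed, and every variable member had overlapping groups. By limma with Benjamini-Hochberg adjustment over 31042 probe sets, 0 of 58 members and 0 of all probe sets (0.0%) had an adjusted p under 0.05, with adjusted p rounding to 1 for each member. At an unadjusted p under 0.05 there were 3 members (5.17%) and 2.29% of all probe sets, all 3 lower on the noodle diet as were 1.35% of all probe sets. Of the 8 variable members 0 reached that limit, against 0.899% of all variable probe sets. In all, 0 members had groups that did not overlap, against 0.567% of all probe sets. Values below are the mean ± SD of log2 values of 4 noodle-diet and 5 control rats, and differences are noodle diet minus control with the standard error of the fit.

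By 1393386_at, Cfap144 stood at 7.58 ± 0.11 with noodle diet and 7.72 ± 0.10 with control diet, a difference of -0.14 (SE 0.067, 95% interval -0.30 to 0.015, limma unadjusted p = 0.0707). Its other probe set gave -0.15 (SE 0.094, interval -0.36 to 0.072). Dynlrb2 measured 8.47 ± 0.21 against 8.54 ± 0.13, a difference of -0.073 (SE 0.11, interval -0.32 to 0.18). For Tmem212, 1381901_at measured 7.71 ± 0.070 against 7.75 ± 0.049 (difference -0.045, SE 0.038) and 1378042_at measured 6.597 ± 0.40 against 6.68 ± 0.32 (difference -0.086, SE 0.23). Cfap161 measured 6.58 ± 0.10 against 6.64 ± 0.066 (difference -0.057, SE 0.052). These 6 probe sets were all below 0, they move together across rats, and so they are not independent readings.

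Cfap20dc measured 9.28 ± 0.10 against 9.32 ± 0.26 (difference -0.037, SE 0.13). Spag5 measured 6.48 ± 0.085 against 6.47 ± 0.15 (difference 0.0038, SE 0.080). Both differences lay within the SD of either group. The widest interval of the 8 was that of Tmem212 (1378042_at), -0.62 to 0.45, so a difference anywhere inside it remained compatible with the 9 arrays.

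**Figure D5:**
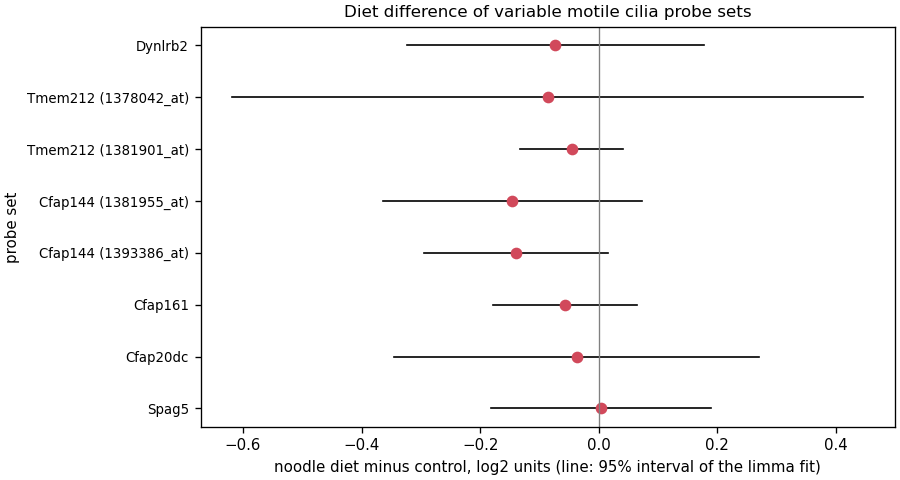
Difference between diets (noodle minus control, log2 units) of each variable member, with the 95% interval of the limma fit as a line. All 8 intervals cross 0, and 7 of the 8 points lie below it.

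Counting direction alone, 46 of 58 members (79.3%) were lower on the noodle diet, against 52.0% of all probe sets; among variable ones it was 7 of 8 against 48.1%. The counts came with a median of -6.1e-05 for members and -4.6e-06 for all. This count depends on scaling, since 39 of the 46 are compressed. With quantile normalization it was 53 of 58 against 76.6% of all probe sets, and with a common array median 32 of 58 against 30.3%. It fell to 37 without noodle-diet rat 4 (51.5% of all probe sets) and to 38 without noodle-diet rat 13 (52.3% of all probe sets). The 3 members with an unadjusted limma p under 0.05 were Spag11a, Drc1 and Foxj1, all compressed and lower, with differences of -0.00010, -0.00034 and -0.00012 that are not fold changes. After quantile normalization or with a common array median 0 members had an unadjusted limma p under 0.05. Both rescalings can move compressed values by more than they range between rats, so this 0 cannot decide for the compressed members. Without rescaling, the unadjusted limma p of Foxj1 ran from 0.0134 (without noodle-diet rat 1) to 0.102 (without noodle-diet rat 4) over rats left out. It was 0.129 with robust variances and 0.0242 with array weights, so this call depended on the fit. By role, the compressed probe sets lower as deposited were 8 of 8 in dynein arms, 5 of 6 in radial spokes, 3 of 3 in the regulatory complex, 5 of 5 in tektins, 10 of 18 among Cfap genes, 7 of 9 among Spag genes and Foxj1. Over all compressed members the 39 lower became 25 of 50 with a common array median, where 30.3% of all probe sets were lower. In the lists outside the rule the counts lower were 34 of 58 probe sets for the axoneme and dynein assembly, 17 of 34 for intraflagellar transport, 6 of 16 for the BBSome and 7 of 16 for ciliary transcription factors, and 0 passed at an adjusted p under 0.05. At an unadjusted limma p under 0.05 these lists held 1, 0, 1 and 1 probe sets.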

How the data were processed

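Total RNA of hypothalamus from 9 rats was extracted with TRIzol, cleaned on a column and labelled from 100 ng, as the labels' protocols state. Values were deposited by the authors as log2 per probe set for 31099 probe sets; their summarization, normalization and filters were not given in the sources used here, and the log2 scale was taken from the range (5.13 to 13.7). The 57 manufacturer's controls were left out. The platform annotation gave 1 symbol to 20826 probe sets, several to 436 and none to 9780; 20758 were found in the RefSeq gene table (GRCr8, names only). Array medians lay between 6.777 and 6.785 and correlations between arrays between 0.997 and 0.999. The number of arrays limits the precision.

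Diets were compared with limma 3.58.1 (R 4.3.3; lmFit, eBayes with an intensity trend, 2-sided, all probe sets). Correlations over rats were tested 2-sided by exact permutation over all pairings (Python 3.11.15, numpy 2.4.6), which gave p down to 2.76e-06. The limma p-values set a diet difference against the spread between these rats. Permutation p-values give the share of pairings whose r lies at least as far from 0. Both procedures were tested on simulated data. The text names every gene with a variable probe set, Foxj1, Dynlrb2, Drc12 and Tmem212, the 10 most similar non-members with a variable probe set, and at most 4 variable genes per list. The members, limits and lists were chosen with earlier results of these data known; Cdhr4, a list member, was among those results. Lists were also fixed for oligodendrocytes, meninges, tanycytes, choroid plexus, ependymal cells and hypothalamic neurons. The 7 variable probe sets of the neuron list gave r from -0.57 to 0.0089 with Dynlrb2.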

Additional observations from a re-analysis of the deposited data

Results flagged for a closer look

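Each named probe set was searched in both diets for a single rat standing apart; of 86 such groups, 3 had such a rat, where chance gives about 4.3. For Cfap20dc noodle-diet rat 1 stood at 9.44, with the other noodle-diet rats at 9.23 to 9.24. The same rat stood apart for the myelin gene Mobp, at 11.11 against 10.74 to 10.75, and for the meningeal matrix gene Lum, at 7.66 against 6.89 to 6.97.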

How the results depend on the processing

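No paired analysis was possible because the diets share no rat number. In limma 0 probe sets passed in any of the 16 alternative fits (other scalings, low means left out, no trend, robust variances, array weights, variable probe sets alone, each rat left out). The count of 8 variable members held under every limit, scaling and rat left out that was run. The median pairwise r of 0.60 ran from 0.47 (without noodle-diet rat 13) to 0.68 (without control rat 14), was 0.49 without control rat 2, and turned to -0.24 with 1 probe set per gene. The following settings were chosen after the values were seen. The count of 9 compressed members following Dynlrb2 was 0 with quantile normalization and 0 with a common array median (0.716% and 0.0% of all compressed probe sets). Either rescaling can move compressed values by more than they range, so these counts cannot decide, and the cause was not tested. The count of 9 became 5 with diet means subtracted (1.84% of all compressed probe sets), 3 with Cfap20dc (4.38%) and 1 with Spag5 (4.29%). With single rats left out it was 4 to 9 (1.23% to 2.28%). It was 6 by Spearman and 6 to 12 with the Tmem212, Cfap144 and Cfap161 probe sets as anchors. For these last settings no share of all compressed probe sets is given, so their counts cannot be set against it. With single rats left out the count of members lower on the noodle diet ran from 37 to 48, against 49.2% to 53.1% of all probe sets. The diet difference of Spag5 ran from -0.035 to 0.057 over rats left out, turning negative without noodle-diet rats 1 (-0.030) or 13 (-0.0099) or control rats 11 (-0.026) or 14. That of Cfap20dc ran from -0.094 to 0.056, positive without control rats 5 (0.0047) or 8, and that of Tmem212 (1378042_at) from -0.27 to 0.049, positive without noodle-diet rat 13 or control rat 2 (0.032). The 7 other named differences kept their direction. That of Dynlrb2 ran from -0.15 to -0.0082.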
